A study of Homo sapiens with 10 samples.

Results

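CD44, PTX3 and 8 further genes of the pericellular hyaluronan matrix were followed in RNA-seq counts of the bladder cancer cell line T24 and its cisplatin-resistant derivative T24R2. The 10 genes, of 61533 in the count tables, were named by symbol and matched to the tables by Ensembl identifier: CD44, PTX3, TNFAIP6, VCAN, HAS2, HAS3, HYAL1, HYAL2, HYAL3 and CEMIP2. They were picked with results of the T24R2 against T24 comparison already known, so their values in it are given as a description, without a test. All 10 had a row, and 8 of the 10 passed the filter on low counts, HYAL1 and TNFAIP6 being the exceptions.

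T24 is a human bladder cancer line. T24R2 was derived from it by repeated exposure to cisplatin, and it reached the study as a gift from another laboratory. Each line was sampled on day 3 of culture in 5 libraries of total RNA. Both lines carry the same medium in the sample labels (RPMI with serum and antibiotics, no drug listed), whereas the study's methods keep T24R2 in cisplatin, so the difference between the lines and the effect of drug in the medium cannot be told apart here. T24R2 was compared as a single derived line, and the labels do not say whether the 5 libraries of a line came from separate cultures. The spread between libraries may therefore be technical.

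Hyaluronan is a long unbranched sugar polymer that HAS enzymes extrude through the plasma membrane into the coat around a cell. CD44 is its main cell-surface receptor, while versican (VCAN), the heavy-chain transferase TSG-6 (TNFAIP6) and the long pentraxin PTX3 bind to the polymer or crosslink it into a stable matrix. Hyaluronidases cut it into fragments, and the length of the chains is known to alter what the receptor does. In urothelial tumours CD44 is used as a marker of basal, stem-like cells, and hyaluronan and hyaluronidase have been studied as urinary markers.

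The bases before the first annotated start of 3 members are shown, since CD44 is the receptor of the set, PTX3 had the lowest level of T24R2 relative to T24 among members counted in every library, and VCAN had the highest. All are hg38 sequence, 250 bases each, written 5' to 3' on the gene's own strand and ending at the base before the gene start in the count tables. Capitals mark matches, on either strand, to any of 5 motifs. The AP-1 site was searched as TGANTCA, the GC box as GGGCGG, the E-box as CACGTG and the TATA box as TATAAA. The remaining motif was the NF-kB consensus, and a base may belong to more than 1 match.
CD44, chr11:35138632-35138881, plus strand: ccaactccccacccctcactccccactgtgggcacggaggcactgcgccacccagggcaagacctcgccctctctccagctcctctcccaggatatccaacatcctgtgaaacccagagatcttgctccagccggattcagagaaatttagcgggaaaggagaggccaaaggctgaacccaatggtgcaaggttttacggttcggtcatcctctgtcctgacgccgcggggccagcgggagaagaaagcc
PTX3, chr3:157436600-157436849, plus strand: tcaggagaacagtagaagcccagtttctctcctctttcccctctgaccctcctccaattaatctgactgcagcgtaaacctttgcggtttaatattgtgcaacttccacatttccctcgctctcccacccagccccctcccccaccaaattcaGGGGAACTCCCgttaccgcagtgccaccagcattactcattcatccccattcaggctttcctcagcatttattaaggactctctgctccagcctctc
VCAN, chr5:83471368-83471617, plus strand: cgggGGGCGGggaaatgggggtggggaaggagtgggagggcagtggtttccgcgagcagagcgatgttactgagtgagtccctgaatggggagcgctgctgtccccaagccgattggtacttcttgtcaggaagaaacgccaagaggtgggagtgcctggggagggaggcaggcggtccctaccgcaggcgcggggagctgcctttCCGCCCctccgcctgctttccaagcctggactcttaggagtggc

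The PTX3 stretch held a pair of NF-kB consensus matches that overlap each other, at 97 to 88 and 96 to 87 bases before the start, and no other motif. The VCAN stretch held GC boxes at 246 to 241 and 44 to 39 bases before the start. The CD44 stretch held none of the 5 motifs. CD44-DT, a transcript on the opposite strand, shares 70 bases with the CD44 exons. GC content was 51.6% for PTX3, 60% for CD44 and 64.8% for VCAN, with 5, 11 and 14 CpG dinucleotides. Over 35116 promoter windows of the same length in RefSeq (GRCh38.p14), the median was 58% GC and 11 CpG, 9.96% held an NF-kB match, 42.6% a GC box, 6.57% an AP-1 match, 6.34% an E-box and 10.7% a TATA box. In the set of RefSeq windows used here, 9 of the 10 members had such a window, HAS2 being the exception. These windows end at RefSeq's own start, which for CD44 and VCAN lies downstream of the start used above. There CD44 held GC boxes at 170 to 165 and 152 to 147 bases before the start, VCAN held a single GC box at 170 to 165, and PTX3 held the same matches as above. GC boxes were also held by HAS3, HYAL1, HYAL3 and CEMIP2, an NF-kB match by HYAL3, an E-box by HAS3 and an AP-1 match by TNFAIP6, while HYAL2 held none of the 5 motifs and none of the 9 held a TATA box. These matches are letters in a sequence, and binding was not measured.

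The libraries held 9257843 to 10840954 counts, and mitochondrial genes took 2.35% to 2.97% of them. Levels are CPM, counts per 1e6 of the library total, after scaling by TMM, a factor that aligns libraries on the bulk of their genes. The factors were 0.936 to 0.951 in T24 and 1.04 to 1.07 in T24R2. A gene was called where edgeR's quasi-likelihood test gave a Benjamini-Hochberg adjusted p under 0.05 and the log2 fold change was beyond 0.5 in either direction. A gene not called may still have an adjusted p under 0.05, with a fold change short of that minimum. Of 16181 genes tested, 51.4% were called, 24.9% higher and 26.5% lower in T24R2, and in 61.2% the libraries of the 2 lines did not overlap. These calls were 4027 higher and 4282 lower, or 5206 and 3431 without TMM scaling. The same thresholds were passed by 8 members, 2 higher and 6 lower, and these 8 did not overlap between lines either. Because the members were picked on this contrast, nothing is read from their count or from their median log2 fold change of -1.46, beside 0.01 for all tested genes. Of 16 markers of bladder epithelium, KRT7, KRT8 and KRT18 were abundant in both lines, and KRT20, UPK1B, UPK3A and CDH1 were at or under the detection floor of 3 counts per library in both. KRT19 (267 CPM in T24) and EPCAM (4.45 CPM in T24) were at the floor in T24R2, at least 964-fold and at least 16.1-fold lower. GATA3 stood at 22.1 and 0.214 CPM, FOXA1 at 66.7 and 13.8 CPM, PPARG at 75.9 and 26.2 CPM and UPK2 at 9.90 and 2.74 CPM in T24 and T24R2, without overlap, whereas KRT5, UPK1A and TP63 held at most 12 counts in any library and overlapped between the lines.

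**Figure D1:**
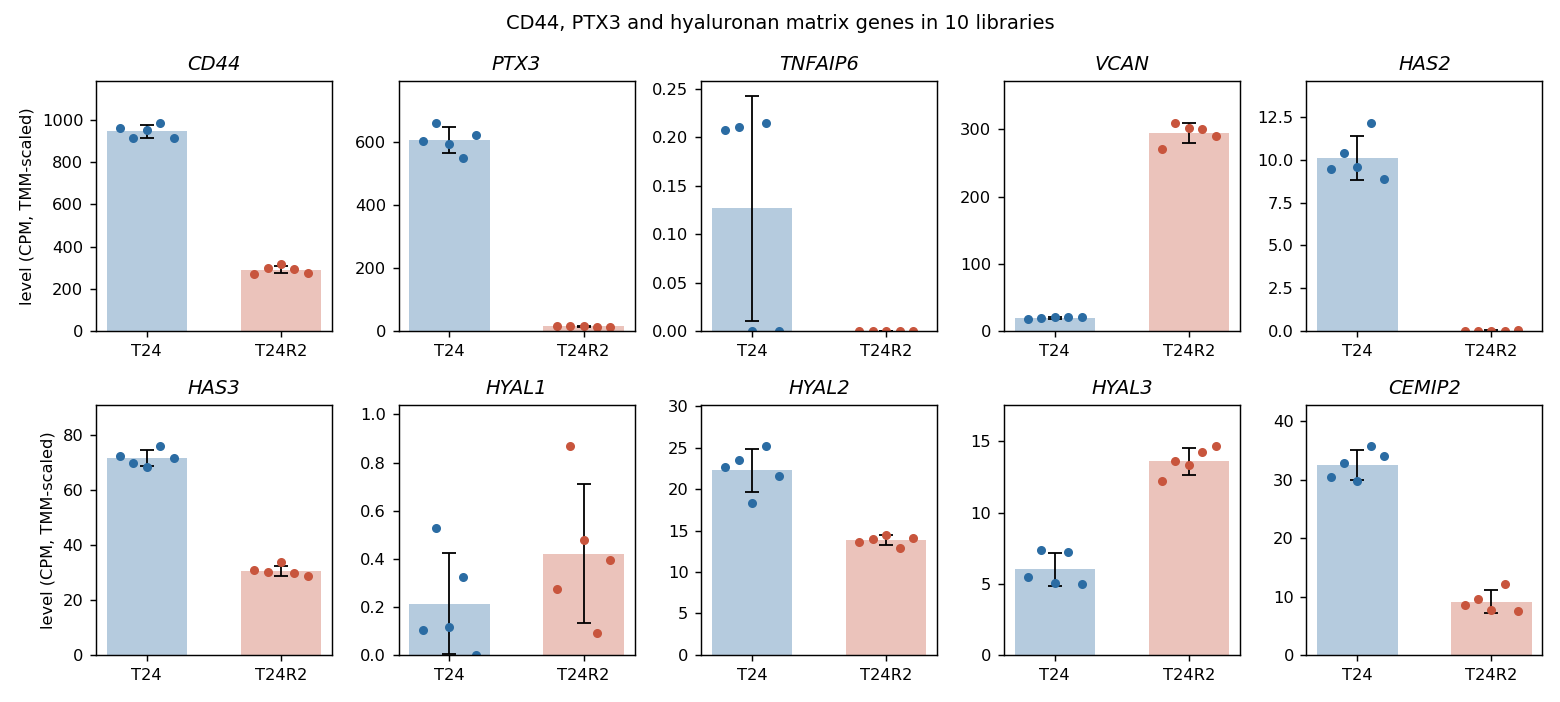
Level of each of the 10 genes, in TMM-scaled CPM, with 1 panel and 1 linear axis per gene. Points are the 5 libraries of T24 (blue) and of T24R2 (red), bars are means and whiskers are 1 SD. VCAN and HYAL3 are higher in all T24R2 libraries, CD44, PTX3, HAS2, HAS3, HYAL2 and CEMIP2 are lower in all of them, and HYAL1 and TNFAIP6 overlap.

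CD44, the hyaluronan receptor (ENSG00000026508.21, chr11:35138882-35232402, plus strand), was an abundant transcript in both lines: per kilobase of exon it stood over 97.3% of all tested genes in T24 and over 90.8% in T24R2. In the T24 libraries it was counted at 962, 913, 948, 985 and 914 CPM. In the T24R2 libraries it was counted at 270.3, 299.7, 317, 293 and 277 CPM. Every T24R2 library thus lay far under every T24 library, and the spread within a line was small beside the gap. The mean was 944 ± 31.3 CPM in T24 and 291 ± 18.7 CPM in T24R2 (SD, n = 5 each), or 30.9% of the T24 level, a log2 fold change of -1.70 (SE 0.04). In total RNA of a culture, fewer cells that express a gene and less of its RNA per cell cannot be told apart. The counts are summed over the gene, so the standard form and the variant exon forms of CD44 are not separated.

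Markers of other cell types were looked at beside this result. Over 7 fibroblast markers the summed level was 8.86 to 11.2 CPM in T24 and 0.954 to 2.29 CPM in T24R2, and 5 of the 7 were at the floor in each line. Over 6 leukocyte markers it was 1.40 to 2.15 CPM and 0.295 to 2.98 CPM, with 4 of the 6 at the floor in each line. Over 4 endothelial markers it was 225 to 278 CPM and 1.60 to 2.50 CPM. Nearly all of that was CDH5, the cadherin of endothelial junctions, at 239 ± 22.3 CPM in T24 and 0.559 ± 0.310 CPM in T24R2, whereas the endothelial receptor KDR was at the floor in both. PECAM1 was lower in T24R2 too, at 5.36 ± 1.25 CPM in T24 and 1.17 ± 0.313 CPM in T24R2 without overlap, and VWF overlapped between the lines. Over the 16 markers of bladder epithelium the sum, which KRT7, KRT8 and KRT18 dominate, was 5010 to 5744 CPM in T24 and 3028 to 3232 CPM in T24R2, with 5 and 6 of them at the floor. The part of these shifts in the member values was not tested.

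PTX3, a secreted long pentraxin that organises hyaluronan with TSG-6 and takes part in innate immunity (ENSG00000163661.4, chr3:157436850-157443633, plus strand), had the lowest ratio of T24R2 to T24 among members that were counted in all 10 libraries. The T24 libraries held 602, 659.9, 592, 549 and 621 CPM. The T24R2 libraries held 16.2, 15.6, 16.2, 14.6 and 14.6 CPM, from 148 to 180 counts each. The T24R2 values were low but well over the floor, and they were close to each other. The means of 605 ± 40.7 and 15.4 ± 0.829 CPM (SD, n = 5 each) put T24R2 at 2.55% of T24, or 39.2-fold lower, with a log2 fold change of -5.29 (SE 0.06). Of all tested genes, 1.64% had a lower log2 fold change. Per kilobase of exon, PTX3 stood over 99.3% of tested genes in T24 and over 65.2% in T24R2.

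TNFAIP6 encodes TSG-6, which moves heavy chains onto hyaluronan and binds PTX3 (ENSG00000123610.5, chr2:151357592-151380046, plus strand). It was at the limit of detection. The T24 libraries held 2, 2, 0, 2 and 0 counts, and the T24R2 libraries 0 counts each. Both lines were under the floor of 3 counts per library, so no fold is given and no difference is read at this depth. The fit without a count filter put 7 members past the thresholds as lower in place of 6, with TNFAIP6 added. The PTX3 transcript was thus abundant in T24 without a TSG-6 transcript over the floor.

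VCAN, the large chondroitin sulfate proteoglycan versican that binds hyaluronan through its G1 domain (ENSG00000038427.16, chr5:83471618-83582303, plus strand), went in the other direction. It stood at 17.9, 20.1, 21.1, 21.2 and 20.5 CPM in the T24 libraries. In the T24R2 libraries it stood at 271, 309.8, 302, 301 and 289.7 CPM. The lowest T24R2 library was far over the highest T24 library. The mean was 20.2 ± 1.37 CPM in T24 and 295 ± 14.9 CPM in T24R2 (SD, n = 5 each), a 14.6-fold higher level with a log2 fold change of 3.87 (SE 0.06). Of all tested genes, 98.7% had a lower log2 fold change. Per kilobase of exon, VCAN stood over 22.7% of tested genes in T24 and over 85.8% in T24R2.

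HAS2 and HAS3 are the synthases, HAS2 being known for long chains and HAS3 for shorter ones. HAS2 (ENSG00000170961.7, chr8:121612116-121641440, minus strand) held 91, 99, 84, 113 and 82 counts in the T24 libraries, a mean of 10.1 ± 1.28 CPM. The T24R2 libraries held 0, 0, 0, 0 and 1 counts. With T24R2 set to the floor of 3 counts per library, HAS2 was at least 36.4-fold lower in T24R2. HAS3 (ENSG00000103044.11, chr16:69105653-69118719, plus strand) was present in both lines. Its T24 libraries held 72.2, 69.5, 68.3, 75.7 and 71.6 CPM. Its T24R2 libraries held 30.9, 30.1, 33.6, 29.8 and 28.6 CPM, all under the T24 values. The HAS3 means were 71.5 ± 2.84 and 30.6 ± 1.86 CPM (SD, n = 5 each), so T24R2 kept 42.8% of the T24 level, a log2 fold change of -1.22 (SE 0.06). Of the hyaluronan synthases, HAS1, the third of the family, held at most 5 counts in a T24 library and 9 in a T24R2 library and was not tested. In T24R2, HAS3 was thus the synthase transcript with more than 10 counts in a library.

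HYAL1, HYAL2 and HYAL3 lie side by side on chromosome 3, on the minus strand. HYAL2, the hyaluronidase anchored at the cell surface (ENSG00000068001.14, chr3:50317790-50322782), stood at 22.7, 23.6, 18.3, 25.2 and 21.6 CPM in T24. It stood at 13.6, 14.0, 14.5, 12.9 and 14.2 CPM in T24R2. The lowest T24 library, replicate 3, was the nearest to the T24R2 range, and the lines did not overlap. The means of 22.3 ± 2.58 and 13.8 ± 0.603 CPM (SD, n = 5 each) gave a log2 fold change of -0.69 (SE 0.10), the smallest among the tested members.

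HYAL3 (ENSG00000186792.17, chr3:50292831-50299405), whose own hyaluronidase activity is weak or absent in many assays, was the other member that was higher in T24R2. The T24 libraries stood at 5.50, 7.36, 5.03, 7.21 and 4.97 CPM. The T24R2 libraries stood at 12.2, 13.6, 13.3, 14.3 and 14.7 CPM, with no overlap. The means were 6.01 ± 1.18 and 13.6 ± 0.943 CPM (SD, n = 5 each), and T24R2 was at 226% of T24, a log2 fold change of 1.17 (SE 0.14). HYAL1, the lysosomal enzyme that has been studied in bladder tumours (ENSG00000114378.17, chr3:50299890-50312381), was near the limit of detection. It held 1, 5, 1, 3 and 0 counts in T24 and 3, 10, 5, 1 and 4 counts in T24R2. The ratio of the summed counts, scaled for depth, was 1.97 with a 95% interval of 0.902 to 4.64 that covers counting error only, so a difference was not detectable at this depth.

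CEMIP2 (TMEM2), a transmembrane protein linked to the breakdown of hyaluronan at the cell surface (ENSG00000135048.14, chr9:71683366-71816690, minus strand), was lower in T24R2. In T24 it stood at 30.4, 32.8, 29.7, 35.7 and 34.0 CPM. In T24R2 it stood at 8.62, 9.62, 7.77, 12.2 and 7.47 CPM. The T24R2 values were spread more widely for their size, with replicate 4 the highest, and none came near T24. The means of 32.5 ± 2.49 and 9.14 ± 1.91 CPM (SD, n = 5 each) put T24R2 at 28.1% of T24, a log2 fold change of -1.82 (SE 0.11).

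**Figure D2:**
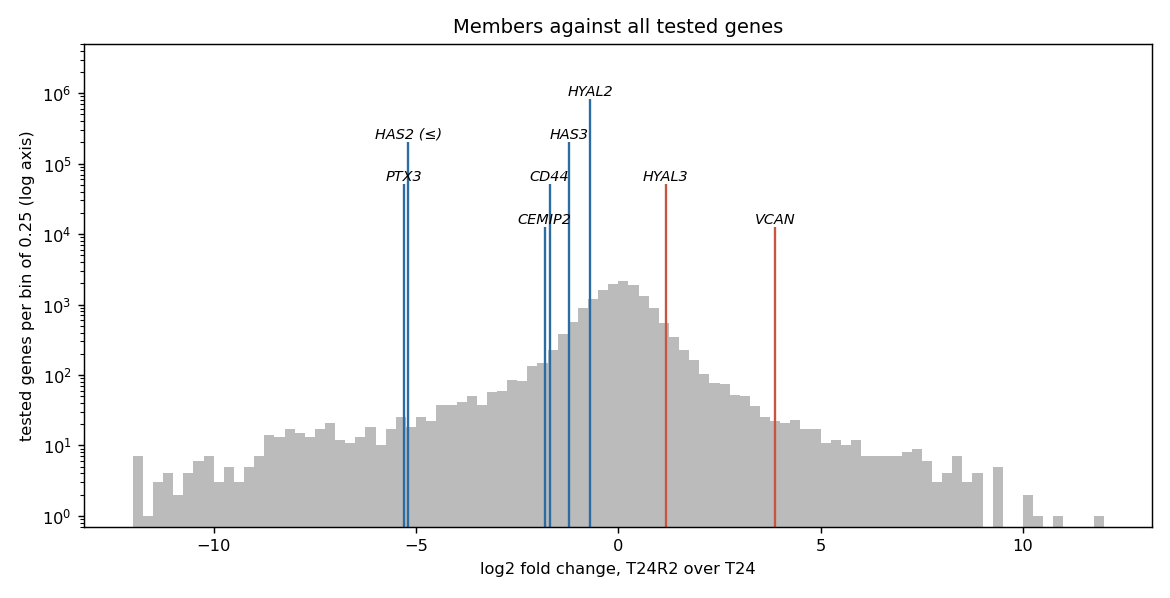
Log2 fold change of T24R2 over T24 for the 8 tested members (coloured lines, blue lower and red higher) over a histogram of all 16181 tested genes (grey, bins of 0.25, log axis for the gene count). The height of a coloured line has no meaning, and HAS2 is drawn at its bound because T24R2 was at the floor. PTX3, HAS2 and VCAN lie outside the range of -2.29 to 1.73 that holds the middle 90% of genes, and the other 5 lie inside it.

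Levels of different genes were set side by side as CPM per kilobase of merged exon. In T24 the order was PTX3 (321 CPM per kb), CD44 (94.5), HAS3 (13.7), HYAL2 (5.04), CEMIP2 (3.52), HYAL3 (3.06), HAS2 (2.38), VCAN (1.37), TNFAIP6 (0.0803) and HYAL1 (0.0692). The libraries of HYAL3 overlapped those of CEMIP2 before it, those of HAS2 overlapped those of HYAL3, and those of HYAL1 overlapped those of TNFAIP6. Ranges alone do not order these neighbours, although HYAL3 stood over HAS2 in every T24 library. With bases shared with other genes left out of the exon length, HYAL3 (3.55) stood just over CEMIP2 (3.52) in T24. In T24R2 the order was CD44 (29.2 CPM per kb), VCAN (20.1), PTX3 (8.20), HYAL3 (6.92), HAS3 (5.89), HYAL2 (3.13), CEMIP2 (0.988), HYAL1 (0.136), HAS2 (0.00464) and TNFAIP6 (0). There the range of HAS3 overlapped that of HYAL3, although HYAL3 stood over HAS3 in every T24R2 library, and TNFAIP6 overlapped HAS2. CD44 stayed among the most abundant members in both lines, PTX3 left the first place and VCAN moved from the eighth place to the second.

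Ratios taken within a library do not depend on the scaling between libraries. CD44 exceeded VCAN per kilobase 69.1 ± 5.73 times in T24 and 1.45 ± 0.0552 times in T24R2 (mean ± SD of 5 libraries each). PTX3 stood at 3.40 ± 0.333 times CD44 per kilobase in T24 and at 0.282 ± 0.0213 times CD44 in T24R2. HYAL3 stood at 0.605 ± 0.0752 times HYAL2 in T24 and at 2.22 ± 0.189 times HYAL2 in T24R2. HAS3 exceeded HAS2 5.83 ± 0.604 times in T24, and no ratio is given for T24R2 with HAS2 at the floor. In the 3 pairs with values in both lines the libraries of the lines did not overlap. These ratios rest on the member differences with which the genes were picked, so nothing is read from them.

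**Figure D3:**
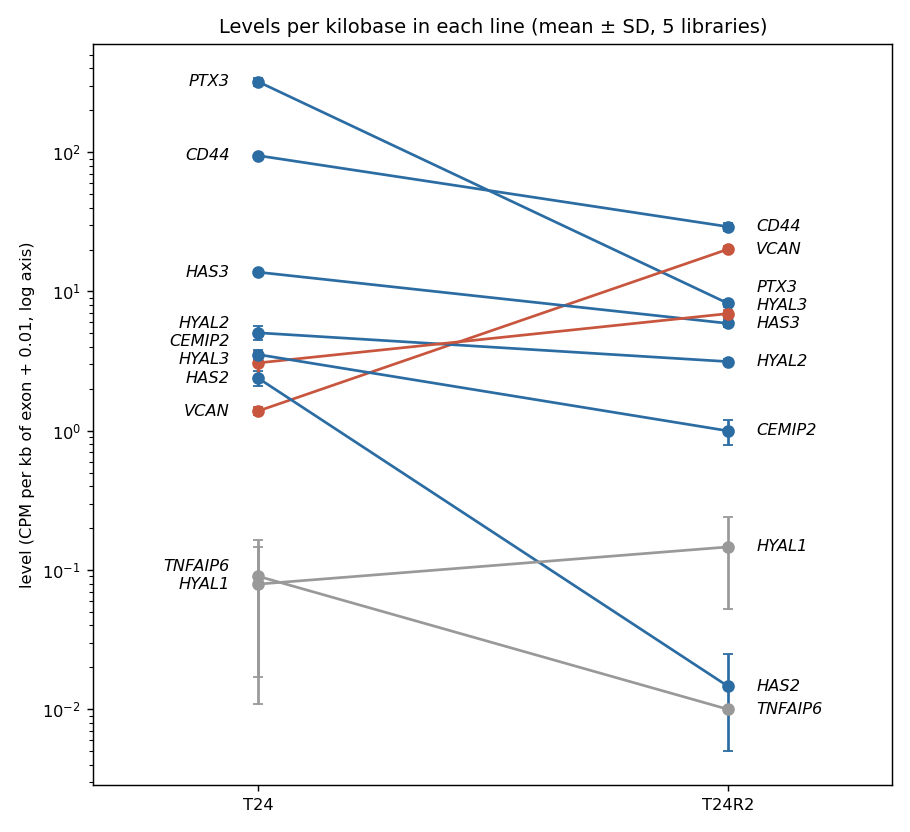
Level per kilobase of exon (CPM per kb + 0.01, log axis) of the 10 members in each line, as means of 5 libraries with 1 SD, joined by lines that are red for higher, blue for lower and grey for untested genes. PTX3 goes from 321 to 8.20, CD44 from 94.5 to 29.2 and VCAN from 1.37 to 20.1, so that CD44 and VCAN lead in T24R2.

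Exons of several members overlap other genes. CD44 shares 70 bases with CD44-DT and 84 bases with CD44-AS1, both on the opposite strand, and CD44-AS1 was called lower too (137 ± 5.30 to 33.0 ± 2.71 CPM, log2 fold change -2.05, SE 0.06, adjusted p = 5.3e-29). VCAN shares 453 bases with VCAN-AS1, which was called higher (2.32 ± 0.235 to 31.0 ± 1.82 CPM, log2 fold change 3.73, SE 0.13, adjusted p = 1.9e-26). PTX3 shares 71 bases with VEPH1 on the opposite strand, and VEPH1 was called lower (125 ± 9.91 to 15.5 ± 1.64 CPM, log2 fold change -3.01, SE 0.07, adjusted p = 1.3e-31). HAS2 shares 251 bases with HAS2-AS1, which had 1.72 ± 0.336 CPM in T24 and 0 counts in T24R2, at least 6.22-fold lower. HAS3 shares 365 bases with CHTF8 and DERPC, which were at 0.732 ± 0.614 and 0 CPM in T24. The sources used here do not settle whether the libraries kept the strand, so reads of these shared bases cannot be told apart.

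With all counts of the opposite genes taken off, the log2 ratio of CD44 went from -1.70 to -1.64, that of HAS3 from -1.22 to -1.24 and that of VCAN from 3.87 to 3.89. For PTX3 this could not be computed, as T24R2 held a mean of 168 counts of VEPH1 against 167.6 of PTX3, although the shared bases are 3.77% of the PTX3 exons. HYAL2 shares 509 bases with TUSC2, and HYAL3 shares 232 bases with NAA80 and 43 with IFRD2, all on the same strand, where the counting tool leaves fragments that fit more than 1 gene uncounted. TUSC2 (log2 fold change 0.33, SE 0.09), NAA80 (0.12, SE 0.14) and IFRD2 (0.33, SE 0.06) were not called.

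Neighbours on the chromosome were examined for each member within 250 kb, 44 tested genes in all. Of these, 7 were called higher, 13 lower and 24 were not called (median log2 fold change 0.01), or 20 of 44 against 51.4% of all tested genes. Among them CD44-AS1, VEPH1, HAS2-AS1 and VCAN-AS1 share exon bases with a member on the opposite strand. Reads of these bases cannot be told apart, so the values of these genes may hold reads of the member. Beside CD44, all 3 were called lower: CD44-AS1, the methionine salvage gene APIP (-1.11, SE 0.09, adjusted p = 1.2e-14) and the pyruvate dehydrogenase complex gene PDHX (-0.54, SE 0.07, adjusted p = 5.3e-09). FJX1, the nearest tested gene on the far side at 386 kb, was lower as well (-1.86, SE 0.09, adjusted p = 1.1e-21). Beside PTX3, all 3 were called lower: VEPH1, SLC66A1L (-1.26, SE 0.17, adjusted p = 9.4e-09) and the unnamed ENSG00000243176 (-1.53, SE 0.20, adjusted p = 1.1e-08). PTX3 itself stood further down than any of them.

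Around the HYAL cluster 20 genes were tested, of which 4 were called higher, 3 lower and 13 were not called, with a median of 0.23. The largest change there was that of SEMA3F, a secreted semaphorin, at a log2 fold change of -5.64 (SE 0.09, adjusted p = 2.1e-38). RASSF1, the nearest tested gene beyond HYAL2, was not called (-0.34, SE 0.09), nor was LSMEM2 beside HYAL3 (0.41, SE 0.14). Beside VCAN, VCAN-AS1 was called higher and the DNA repair gene XRCC4 lower (-0.53, SE 0.13, adjusted p = 0.00032), while EDIL3, 358 kb away, was not called (0.26, SE 0.07). Beside HAS3, 1 of 9 genes was called higher and 2 lower, and the nearest on each side were TANGO6 (-0.64, SE 0.10, adjusted p = 7.3e-07, called lower) and UTP4 (-0.13, SE 0.07, not called). Beside CEMIP2 the 2 tested genes were not called, ABHD17B at 0.18 (SE 0.10) being the nearer, and KLF9, the nearest on the other side but outside the window, stood at -0.45 (SE 0.08). Of 4 genes beside TNFAIP6, NMI was called higher (0.69, SE 0.09, adjusted p = 2.4e-08) and RIF1 on the other side was not (0.37, SE 0.07). The HAS2 window held HAS2-AS1 alone, and the nearest genes beyond it, SNTB1 (0.94, SE 0.21, adjusted p = 9.8e-05) and ZHX2 (0.75, SE 0.12, adjusted p = 3.4e-07), were called higher.

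**Figure D4:**
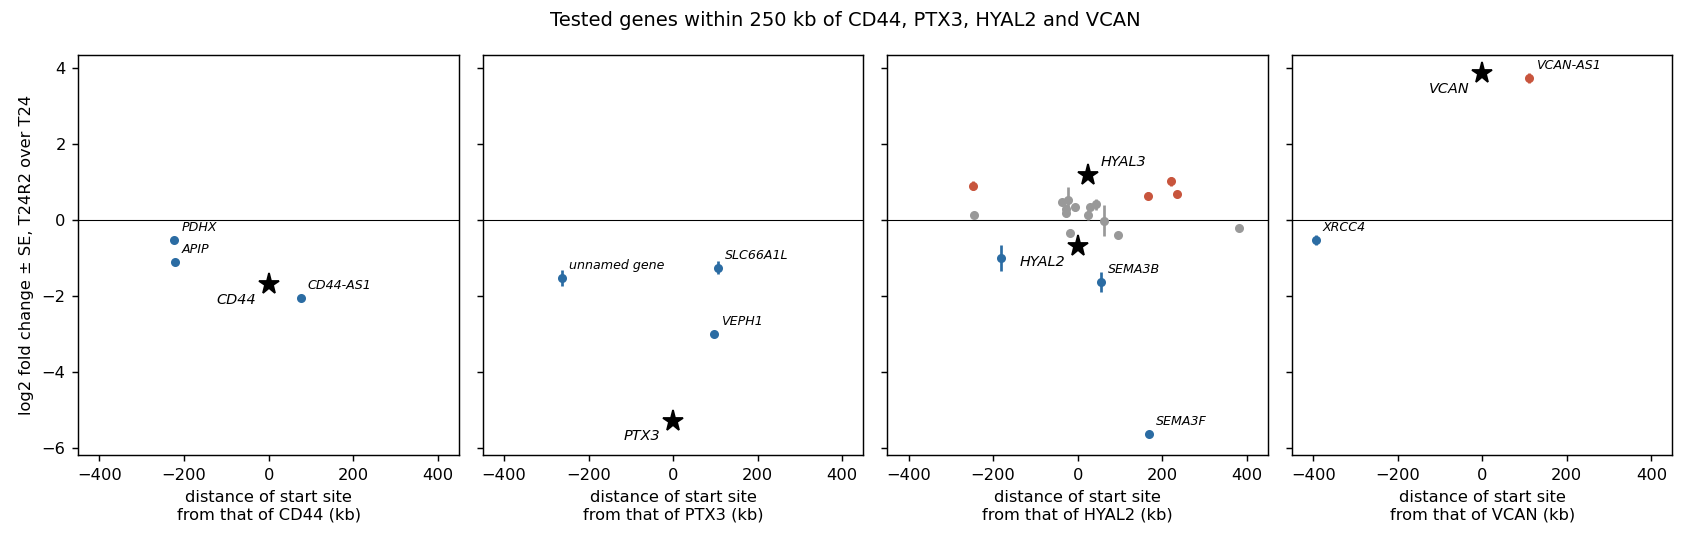
Log2 fold change (T24R2 over T24, with 1 SE) of tested genes within 250 kb of CD44, PTX3, HYAL2 and VCAN, against the distance between start sites in kb. Stars are members and dots are neighbours, red for called higher, blue for called lower and grey for not called. All 3 neighbours of CD44 and all 3 of PTX3 lie below 0, whereas the 20 around HYAL2 and HYAL3 lie on both sides, with SEMA3F at -5.64. CD44-AS1, VEPH1 and VCAN-AS1 overlap exons of the member, and their values may hold its reads.

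The genes whose levels over the 10 libraries lay nearest to those of CD44, by Euclidean distance of log2 CPM, were F3, the coagulation starter tissue factor (distance 0.329, 976 ± 71.3 CPM in T24 and 313 ± 8.49 CPM in T24R2), the receptor phosphatase gene PTPRF (0.368, 999 ± 28.2 and 314 ± 10.4 CPM) and MICAL2, an actin-oxidising enzyme (0.680, 893 ± 18.2 and 354 ± 6.80 CPM). The nearest to PTX3 were farther off. IGFBP7, a secreted IGF-binding protein, lay at a distance of 1.61 (456 ± 25.7 CPM in T24 and 10.5 ± 1.41 CPM in T24R2), MRC2, a collagen uptake receptor, at 2.21 (514 ± 26.3 and 29.8 ± 2.52 CPM) and SERINC2 at 2.52 (314 ± 30.5 and 10.2 ± 1.24 CPM). The measure rewards a like level as well as a like difference between lines.

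Other genes of hyaluronan, CD44, versican and PTX3 biology were taken from 8 lists of 84 genes, none of them members, of which 53 were tested. Of the 53, 7 were called higher and 25 lower (11 and 22 without TMM scaling) and 21 were not called, or 60.4% called against 51.4% of all tested genes, and their median log2 fold change was -0.36 against 0.01. The lists were drawn up with earlier results of these data known, so the counts are descriptions of the lists.

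In the precursor supply for hyaluronan, 1 of 7 tested genes was called higher, none lower and 6 were not called (median -0.13). The gene called was GFPT2, an entry enzyme of the hexosamine pathway that makes UDP-N-acetylglucosamine (19.4 ± 1.44 to 38.6 ± 2.54 CPM, log2 fold change 0.99, SE 0.08, adjusted p = 5.1e-14). UGDH, which makes the UDP-glucuronic acid for the polymer, stood at 101 ± 1.61 and 92.1 ± 4.74 CPM (log2 fold change -0.14, SE 0.05) and was not called. The 6 genes not called had log2 fold changes between -0.45 (GFPT1) and 0.37 (UGP2). All 6 had an adjusted p under 0.05 and missed the fold minimum alone. Among 4 tested genes of hyaluronan breakdown, CEMIP, a secreted hyaluronan-binding protein related to CEMIP2, was called higher (1.38 ± 0.258 to 3.78 ± 0.650 CPM, log2 fold change 1.45, SE 0.25, adjusted p = 3.2e-06). GUSB, a lysosomal glucuronidase, was called lower (73.3 ± 2.47 to 34.3 ± 3.25 CPM, log2 fold change -1.10, SE 0.07, adjusted p = 2.5e-18), and HEXA was not called (log2 fold change 0.39, SE 0.06). CEMIP and CEMIP2 therefore stood on opposite sides, and the level of CEMIP was low in both lines.

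Of 5 tested hyaluronan receptors other than CD44, 4 were called lower, none higher and 1 was not called (median -1.28). LAYN, the membrane lectin layilin, went from 46.2 ± 0.520 to 0.161 ± 0.270 CPM (log2 fold change -8.02, SE 0.22, adjusted p = 9.6e-30). The size of that value rests on T24R2 replicate 4, which held 7 counts of LAYN where the other T24R2 libraries held at most 2. Without it the log2 fold change of LAYN was -9.61, with T24R2 under the floor. TLR2, an innate receptor reported to respond to hyaluronan fragments, had 10.2 ± 1.91 CPM in T24 and 0 counts in every T24R2 library, at least 36.9-fold lower. HMMR, a spindle protein that also binds hyaluronan, went from 112 ± 5.57 to 57.1 ± 5.48 CPM (log2 fold change -0.97, SE 0.06, adjusted p = 6.9e-18). The fourth was TLR4, and STAB1 was not called (log2 fold change -0.33, SE 0.15). No tested receptor of the list was higher in T24R2, while LYVE1 held 0 counts in both lines.

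Of 17 listed hyaluronan-binding or crosslinking matrix genes, 4 were tested, 3 were called lower and 1 was not called (median -1.18). FBLN1, the matrix glycoprotein fibulin-1 that binds the lectin domains of the versican family, went from 231 ± 14.8 to 6.73 ± 0.854 CPM (log2 fold change -5.10, SE 0.07, adjusted p = 3.0e-39). HAPLN3, a link protein, went from 12.3 ± 1.82 to 5.56 ± 1.17 CPM (log2 fold change -1.14, SE 0.15, adjusted p = 1.5e-08). HABP4, which despite its name acts mainly on RNA inside the cell, went from 62.2 ± 6.85 to 26.7 ± 1.82 CPM (log2 fold change -1.22, SE 0.07, adjusted p = 8.1e-18). The genes from ITIH1 to ITIH5, some of which encode heavy chains that TSG-6 transfers, were not tested and held at most 10 counts in any library. No tested gene of this list was called higher alongside VCAN.

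Among 4 tested proteases that cut versican, 2 were called lower and 2 were not called (median -2.40). ADAMTS1 went from 254 ± 11.3 to 10.7 ± 1.74 CPM (log2 fold change -4.57, SE 0.07, adjusted p = 2.9e-38). ADAMTS9 went from 27.0 ± 1.90 to 0.381 ± 0.301 CPM (log2 fold change -6.08, SE 0.21, adjusted p = 2.5e-26). Its T24R2 libraries held 1 to 9 counts, so the size of that value rests on few counts. ADAMTS5 (log2 fold change 0.12, SE 0.28) and ADAMTS15 (-0.23, SE 0.16) were low in both lines and were not called. VCAN and the 2 proteases called stood in opposite directions, which is a statement on transcripts and not on cleavage.

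Of 12 tested genes for CD44 partners, sheddases and splicing factors, 1 was called higher, 7 lower and 4 were not called (median -0.55). ANK3, the ankyrin-G scaffold of a protein family that binds the CD44 tail, went from 4.53 ± 0.684 to 47.8 ± 2.79 CPM (log2 fold change 3.40, SE 0.10, adjusted p = 5.5e-28). SRGN, the proteoglycan serglycin that can bind CD44, went from 532 ± 21.8 to 120.3 ± 4.40 CPM (log2 fold change -2.14, SE 0.05, adjusted p = 1.7e-33). MMP14, a membrane protease that can shed CD44, went from 570.5 ± 5.20 to 184 ± 9.29 CPM (log2 fold change -1.63, SE 0.04, adjusted p = 4.5e-30). CD74, a co-receptor of CD44 for the cytokine MIF, went from 25.4 ± 2.22 to 0.203 ± 0.214 CPM (log2 fold change -6.89, SE 0.24, adjusted p = 3.4e-26). Without T24R2 replicate 4, which held 6 counts of CD74, that value was -7.62. The sheddase ADAM10 stood just under the fold threshold (log2 fold change 0.49, SE 0.04), and among the actin linkers MSN was not called (-0.24, SE 0.04), while EZR (-0.56, SE 0.04, adjusted p = 1.1e-14), RDX (-0.54, SE 0.05, adjusted p = 3.3e-12) and the related NF2 (-0.58, SE 0.05, adjusted p = 1.0e-13) were called lower. ESRP2, a splicing regulator that favours CD44 variant exons, was called lower at a log2 fold change of -4.08 (SE 0.25, adjusted p = 1.3e-17), and ESRP1 held at most 4 counts in a library. The T24R2 libraries held 3 to 10 counts of ESRP2, so the size of its value rests on few counts.

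The list of other pentraxins and PTX3 ligands had 3 of 12 genes tested, and all 3 were called higher (median 1.15). NPTXR, the neuronal pentraxin receptor, went from 3.09 ± 0.741 to 18.0 ± 2.30 CPM (log2 fold change 2.54, SE 0.15, adjusted p = 4.2e-18). FGF2, a growth factor that PTX3 binds, went from 22.0 ± 0.71 to 48.7 ± 3.32 CPM (log2 fold change 1.15, SE 0.07, adjusted p = 3.5e-17). The short pentraxin genes CRP and APCS held at most 1 count in any library.

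PTX3 and TNFAIP6 are known to be induced by interleukin-1, TNF and NF-kB. Of 14 tested genes listed for that input, 1 was called higher, 8 lower and 5 were not called (median -0.86). The list mixes inducers with inhibitors of NF-kB, so its median is not a measure of the input. TNFAIP3, which encodes the NF-kB inhibitor A20, went from 247 ± 24.2 to 37.2 ± 3.20 CPM (log2 fold change -2.73, SE 0.06, adjusted p = 5.0e-32). IL1A went from 170.0 ± 9.86 to 41.8 ± 3.43 CPM (log2 fold change -2.02, SE 0.06, adjusted p = 4.2e-29), and IL1B from 404 ± 4.74 to 155 ± 8.92 CPM (log2 fold change -1.38, SE 0.04, adjusted p = 4.0e-27). The receptor gene IL1R1 was called higher, from 2.81 ± 1.21 to 12.7 ± 0.704 CPM (log2 fold change 2.18, SE 0.18, adjusted p = 1.1e-13). The subunit RELA was not called (log2 fold change -0.29, SE 0.05), and neither was NFKB1 (0.39, SE 0.05), while NFKB2 was called lower (-1.49, SE 0.05, adjusted p = 4.3e-27). Whether any of these differences bears on PTX3 was not tested.

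**Figure D5:**
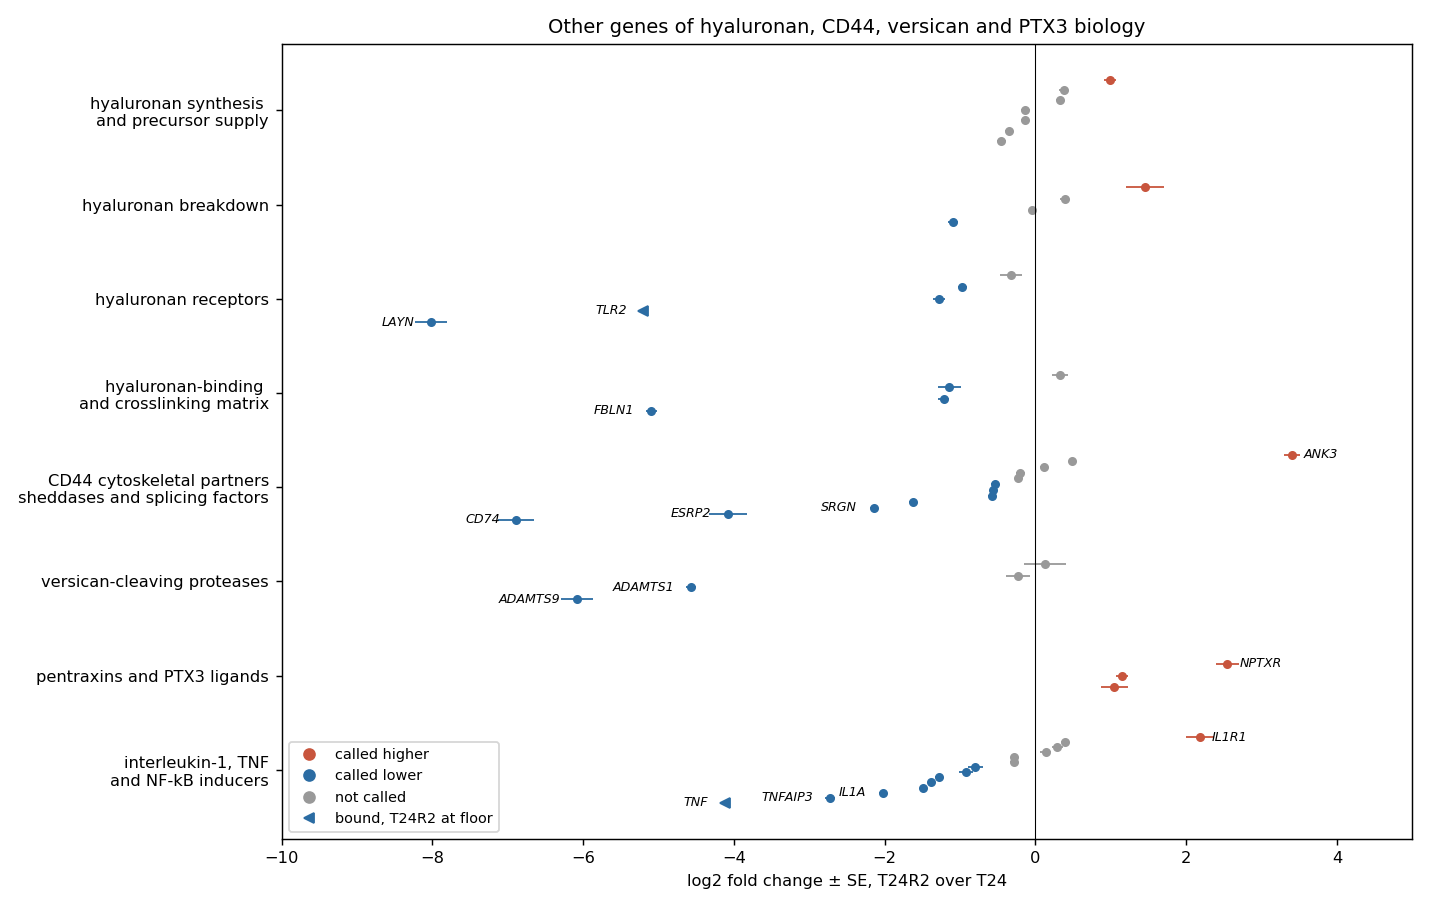
Log2 fold change (T24R2 over T24, with 1 SE) of the 53 tested genes of the 8 lists, 1 row per list. Red dots were called higher, blue lower and grey were not called, and triangles mark bounds where T24R2 was at the floor. The receptor, matrix and interleukin-1 lists lie mostly to the left of 0, and the 3 tested pentraxins and PTX3 ligands lie to the right.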

How the data were processed

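Total RNA of T24 and T24R2 was sequenced, 5 libraries per line. According to the study's methods, the authors aligned reads to hg38 with STAR 2.7.0, kept unique reads without duplicates (SAMtools 1.10) and counted them with featureCounts on GENCODE release 39. Per the file headers this was featureCounts 2.0.1 with paired fragments and strand option 1. The deposited values are raw counts per gene, 1 table per library, not normalized and not pooled. Removal of duplicates without molecular tags can lower the counts of abundant transcripts.

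The members and the 8 gene lists were chosen with earlier results of these data known. Counts were filtered (filterByExpr), scaled (TMM) and tested with edgeR 4.0.16 (quasi-likelihood, all 10 libraries, Benjamini-Hochberg over 16181 genes) in R 4.3.3. The SE given for a log2 fold change is its absolute value divided by the square root of the F statistic of this test. DESeq2 1.42.0, limma 3.58.1 and other settings were alternatives. No 2 libraries of a line agreed within sampling noise (their chi-square was 1.99 to 6.51 times its degrees of freedom), and each counted as 1 replicate. That does not show that they came from separate cultures. The coefficient of variation that edgeR names biological was 6.61%, and it may hold technical spread. Intervals and the floor of 3 counts per library cover counting error only. The fit was tested on simulated counts in which 200 genes were changed. Of these 191 were called, as were 2 unchanged genes, among 15906 tested. Far fewer genes were changed than the 51.4% called here, so the simulation cannot check the scaling between lines.

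Named were all members, every gene sharing exons with a member, up to 3 called genes per list and direction by smallest adjusted p, the closest tested neighbour of a member in both directions, and the 3 genes nearest in pattern to CD44 and to PTX3. Outside this rule, and after their values were seen, the text names APIP, SEMA3F, HAS1, UGDH, GFPT1, UGP2, HEXA, TLR4, STAB1, LYVE1, ITIH1, ITIH5, ADAMTS5, ADAMTS15, ADAM10, MSN, EZR, RDX, NF2, ESRP1, ESRP2, CRP, APCS, RELA, NFKB1, NFKB2 and cell type markers. Motifs were matched on both strands. Gene symbols were matched for 61415 of 61533 identifiers. Some genes of the lists are not reported here by name. Protein sequences were not used here.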

Additional observations from a re-analysis of the deposited data

Results flagged for a closer look

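A library was taken to stand apart where its gap to the nearest of the other 4 was larger, relative to the range of its line, than Dixon's test allows for 5 samples, a limit that chance passes in about 1 of 20 groups. Among 60 sets of 5 libraries examined, for members and named genes of the lists, 8 met this, where 3 are expected by chance. None was a member. In T24, TLR2 stood at 6.86 CPM in replicate 3 against 10.5 to 11.3 CPM in the other libraries, HAPLN3 at 9.13 CPM in replicate 1 against 12.6 to 13.7 CPM, and NPTXR at 1.79 CPM in replicate 2 against 3.22 to 3.56 CPM. In T24R2, HMMR stood at 47.7 CPM in replicate 1 against 58.0 to 62.0 CPM, and NPTXR at 22.1 CPM in the same replicate against 16.6 to 17.5 CPM. SRGN stood at 128 CPM in T24R2 replicate 2 against 117 to 120.3 CPM, TNFAIP3 at 42.9 CPM in replicate 3 against 35.2 to 36.5 CPM, and IL1A at 47.9 CPM in replicate 5 against 39.5 to 40.7 CPM. Each of these values stayed on its line's side of the difference between T24 and T24R2. Their cause was not tested.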

How the results depend on the processing

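Of 337 values recomputed under an alternative, 0 reversed and 29 moved, that is by more than 1.5 times for a count or by more than 1 SD between replicates for a level or fold change. Shifts short of that were at times large, such as 10919 genes called without a count filter or 12212 without a fold minimum in place of 8309. Members past the thresholds numbered 8 in every fit but 3: 9 without a count filter, and 7 both with a mean of at least 100 counts and with a fold minimum of 1 on the log2 scale. Over all fits the log2 fold change lay between -1.72 and -1.53 for CD44, -5.33 and -5.13 for PTX3, -1.25 and -1.06 for HAS3, -0.76 and -0.53 for HYAL2, -1.95 and -1.66 for CEMIP2, 1.11 and 1.34 for HYAL3, and 3.82 and 4.03 for VCAN. Without scaling beyond library size the median of all tested genes moved from 0.01 to 0.18, the calls were 5206 higher and 3431 lower in place of 4027 and 4282, and 11 genes of the lists in place of 7 were called higher. Without a count filter that last number was also 11. With a mean of at least 100 counts, 4991 genes were called, 2350 higher and 2641 lower, since fewer genes were tested. With no fold minimum, 6128 genes were called higher, and 49 genes of the lists were called, 15 of them higher. With the fold minimum of 1, 4211 genes were called, 1918 higher and 2293 lower. With shared bases left out of the exon length, levels per kilobase of HAS3 and HYAL2 moved in both lines, and that of HYAL3 in T24R2. Of the neighbours, 11 of 27 tested were called within 100 kb and 33 of 66 within 500 kb, in place of 20 of 44. Replicate numbers are shared by the lines, but same-numbered libraries did not deviate together (correlations 0.0020 to 0.0596), and with the replicate block 8240 genes were called, 8226 of them shared with the 8309 called without it. At this depth HYAL1 and TNFAIP6 were too low to compare, and HAS2 in T24R2 gave a bound alone. The member added without a count filter was TNFAIP6, from at most 2 counts in a library.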
